A study of Mus musculus with 8 samples.

Results

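The 10 genes described here are transcription factors that are known for their part in early blood progenitors: Sox4, Bcl11a, Mef2c, Meis1, Hoxa9, Lmo2, Myb, Spi1, Satb1 and Hhex. They were found by their symbols, using only probe sets annotated to 1 gene, which gave 22 probe sets of the 45141 on the array and 10 of the 17097 genes with such a probe set. Their RNA levels were measured in 2 progenitor populations on 8 one-colour Affymetrix arrays. Both were sorted fresh from mouse bone marrow depleted of lineage-positive cells. All groups came from ID2-GFP reporter mice. The reporter, which shows activity of the Id2 gene as green fluorescence, is named by the labels' protocols for every sample. The 4 groups were wild type (WT) ALP, the all lymphoid progenitors, Nfil3 knockout (KO) ALP, wild type prepro NK cells (preproNK) and Nfil3 knockout preproNK, with 2 arrays each. Replicates 1 and 2 were processed on separate dates. Age, strain background, the sort markers and the number of mice per sample are not stated by the labels, nor is the kind of Nfil3 knockout.

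Early lymphoid progenitors still carry much of the transcription factor programme of multipotent cells. Hoxa9 and Meis1 are homeodomain proteins that bind DNA together and sustain progenitor genes such as Flt3, Lmo2 bridges DNA-binding partners in multiprotein complexes, and Myb maintains proliferation and immaturity. Spi1 (PU.1) is an ETS factor whose dose steers cells between myeloid and lymphoid fates. Mef2c and Bcl11a favour lymphoid potential, Hhex is a homeodomain repressor of early haematopoiesis, Sox4 is an HMG-box factor of early lymphoid cells, and Satb1 organizes chromatin in stem cells and T cells. As NK cells form, much of this programme gives way to factors such as Id2, Tbx21 and Zbtb16. Nfil3 is a bZIP factor needed for NK cell development.

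Promoter windows, taken from RefSeq for the GRCm38.p6 assembly as the 250 bases before an annotated start, were found for 8 of the 10 genes in 14 windows. Spi1 and Lmo2 were not matched. Those of the 3 genes among the matched members with the most negative differences between the populations, at their brightest probe sets, are shown so that the letters behind the motif counts can be seen. Capitals mark CAGCTG, an E-box bound by E proteins, in Sox4, GGGCGG, a GC box, in Bcl11a and Hoxa9, and CAACNG, a Myb-type site, in Hoxa9, each on either strand. The Sox4 window is chr13:28953700-28953949 on the minus strand, that of Bcl11a is chr11:24080445-24080694 on the plus strand, and that of Hoxa9 is chr6:52227371-52227620 on the minus strand.
Sox4: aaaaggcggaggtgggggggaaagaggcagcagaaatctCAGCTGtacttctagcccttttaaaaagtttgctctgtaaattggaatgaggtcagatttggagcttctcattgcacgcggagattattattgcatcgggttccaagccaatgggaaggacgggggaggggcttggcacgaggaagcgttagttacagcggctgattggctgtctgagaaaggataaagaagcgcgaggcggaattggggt
Bcl11a: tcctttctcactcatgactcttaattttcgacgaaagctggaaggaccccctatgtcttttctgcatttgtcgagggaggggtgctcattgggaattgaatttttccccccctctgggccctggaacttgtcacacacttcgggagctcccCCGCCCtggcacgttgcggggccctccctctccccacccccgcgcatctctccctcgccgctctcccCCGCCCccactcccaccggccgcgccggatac
Hoxa9: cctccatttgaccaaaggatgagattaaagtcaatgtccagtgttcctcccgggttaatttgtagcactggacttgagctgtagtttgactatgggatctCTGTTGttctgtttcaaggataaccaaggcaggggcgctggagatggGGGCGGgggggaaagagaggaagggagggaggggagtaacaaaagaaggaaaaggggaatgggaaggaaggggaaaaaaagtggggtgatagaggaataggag

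More motifs were looked at first, and the 7 given here were chosen after their matches were seen. They were searched on both strands in these windows and in all 32851 windows of the same length. TTANGTAA, the letters of an Nfil3-type site, were in 0 of the 14 member windows and in 2.06% of all windows. The Myb-type letters CAACNG were in 1 member window, that of Hoxa9, against 29.3% of all windows. The Meis-type letters TGACAG and the Spi1-type letters GAGGAAGT were in 0 member windows, against 15.9% and 2.44% of all. The Sox-type letters ACAAAG were in 3 member windows, 1 of Mef2c and 2 of Satb1 that overlap and share the site, against 16.5% of all. CAGCTG was in 2, of Sox4 and Satb1, against 13%, and GGGCGG was in 6 windows of 6 genes, against 32.7%. The motifs do not overlap in the printed sequences, and a match is a description of letters, not of binding.

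The array of WT preproNK replicate 2 stood apart from the others. It correlated with the other array of its group at 0.621 over the tested genes, against 0.869 to 0.963 within the other 3 groups. It also had the narrowest spread of values, with an SD over the probe sets of 1.39 on the log2 scale, compared with 1.55 to 1.88 for the other 7. On the log2 scale Nfil3, the targeted gene, was at 6.89 and 5.5 (WT) and 3.41 and 4.15 (KO) among the ALP arrays, and 4.75 and 4.74 (WT) and 3.84 and 3.57 (KO) among the preproNK arrays, so that every KO array lay below every WT array. Where its probes lie relative to the deleted part is not known. The 11 tested early progenitor markers, surface molecules beside the nuclear enzymes Dntt, Rag1 and Rag2, were uneven in ALP. Their WT ALP means were 10.52 (Dntt), 8.62 (Flt3), 8.51 (Cd93), 8.17 (Cd27), 7.88 (Cd34) and 7.15 (Il6ra). The others were at 6.02 (Csf1r), 5.28 (Ccr9), 4.69 (Kit), 4.61 (Rag2) and 3.85 (Rag1). In preproNK the interleukin receptor gene Il2rb had means of 6.27 in WT and 8.90 in KO, and Klrb1c, which encodes NK1.1, had 5.90 and 6.16, close to its 5.55 and 5.32 in WT and KO ALP. Ncr1, a defining receptor of NK cells, did not pass the filter on dim genes.

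The comparison of preproNK with ALP addresses how the levels of these factors change between the populations. Averaged over WT and KO, 8 of the 10 fell by the test over all genes (limma, adjusted p 0.00155 to 0.0433), against 1.61% of the 11583 tested genes called lower. The 8 were Sox4, Bcl11a, Mef2c, Meis1, Hoxa9, Lmo2, Myb and Hhex, while Spi1 and Satb1 did not pass. Meis1 and Myb are among the 8 but passed the filter on dim genes only through the ALP arrays, where they are higher. Even there Myb was dim, and above the array median on only 3 of the 4 ALP arrays. Without that filter 6 were called, since Myb (adjusted p = 0.0508) and Hhex (adjusted p = 0.0776) no longer passed by limma. The median log2 difference of the 10 was -2.94, against -0.01 over all tested genes. Of the 10, 8 are among the 2896 tested genes brightest in ALP. The median over those 2896 was -0.10 (replicate 1) and -0.94 (replicate 2) in the WT pairs of arrays. In the KO pairs it was -0.26 and 0.17. All 4 preproNK arrays lay below all 4 ALP arrays for 9 of the 10, with Satb1 as the exception, against 6.97% of tested genes. All 10 were lower in preproNK in each of the 4 pairs of arrays with the same genotype and replicate number, against 16.9% of tested genes. The 10 were chosen with earlier results of these data known, so the shares over all genes describe them and do not test them. The populations are sorted bulk samples, so fewer cells of a type and less RNA per cell cannot be told apart.

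**Figure D1:**
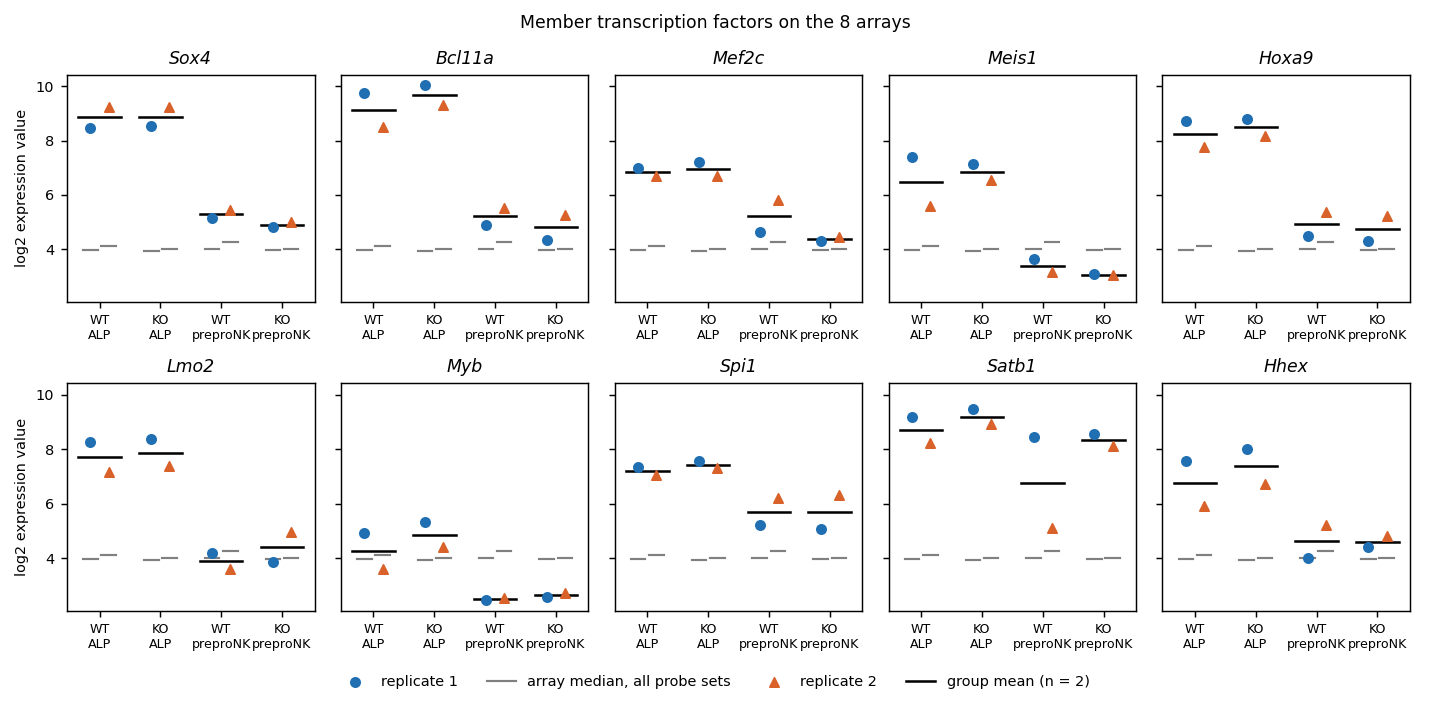
Each panel plots the log2 expression value of 1 gene, at its representative probe set, on the 8 arrays. Circles are replicate 1, triangles replicate 2, black bars the mean of the 2 arrays of a group and grey ticks each array's median over all probe sets. Of the 10 genes, 9 have all preproNK points below all ALP points, and Satb1 has 1 low point, WT preproNK replicate 2 at 5.09.

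Bcl11a, a zinc finger repressor needed for B cell and NK-related progenitors, had the most negative difference of the 10 at its representative probe set, the brightest one. Its log2 values were 9.74 and 8.50 (WT) and 10.05 and 9.32 (KO) among the ALP arrays, and 4.91 and 5.52 (WT) and 4.36 and 5.28 (KO) among the preproNK arrays, listed as replicates 1 and 2. The lowest ALP array was 2.98 log2 above the highest preproNK array. The mean difference between preproNK and ALP was -4.39 log2 (SE 0.40, adjusted p = 0.00235 by limma), a 20.9-fold lower level. With the mean of each gene's probe sets in its place, Bcl11a was at -2.33, and Lmo2 (-3.65), Hoxa9 (-3.52), Sox4 (-3.39), Mef2c (-2.61), Meis1 (-2.48) and Hhex (-2.44) had more negative differences. Sox4 stood at 8.46 and 9.24 (WT) and 8.54 and 9.22 (KO) among the ALP arrays, and 5.14 and 5.44 (WT) and 4.83 and 4.99 (KO) among the preproNK arrays. The populations were 3.02 log2 apart at their nearest arrays, the widest gap of the 10, and both genotypes lay together within each population. Its mean difference was -3.77 log2 (SE 0.30, adjusted p = 0.00155 by limma), 13.6-fold.

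The homeodomain pair Hoxa9 and Meis1 both fell. Hoxa9 was at 8.72 and 7.77 (WT) and 8.80 and 8.17 (KO) among the ALP arrays, and 4.48 and 5.39 (WT) and 4.30 and 5.21 (KO) among the preproNK arrays, a mean difference of -3.52 log2 (SE 0.38, adjusted p = 0.0049 by limma) or 11.5-fold. Meis1 was at 7.39 and 5.6 (WT) and 7.14 and 6.56 (KO) among the ALP arrays, and 3.63 and 3.16 (WT) and 3.09 and 3.05 (KO) among the preproNK arrays. All 4 preproNK values of Meis1 were below the median over all probe sets of their array (3.98 to 4.27), a level taken here as near background. With those values set to that median, Meis1 was at least 6.08-fold lower in preproNK at this representative probe set. The fitted difference there was -3.44 log2 (SE 0.42, adjusted p = 0.00698 by limma). A second Meis1 probe set of similar brightness had a smaller mean difference of -1.52. Hhex, the third homeodomain factor, was at 7.58 and 5.91 (WT) and 8.02 and 6.72 (KO) among the ALP arrays, and 4.02 and 5.23 (WT) and 4.41 and 4.81 (KO) among the preproNK arrays. The nearest arrays of the populations were only 0.68 log2 apart for Hhex, and its mean difference was -2.44 (SE 0.50, adjusted p = 0.0433 by limma).

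Lmo2, the LIM-domain bridging factor, was at 8.28 and 7.16 (WT) and 8.37 and 7.39 (KO) among the ALP arrays, and 4.18 and 3.59 (WT) and 3.86 and 4.96 (KO) among the preproNK arrays. The preproNK arrays were all low but disagreed on genotype, with KO above WT in the replicate 2 pair only. Lmo2 had a mean difference of -3.65 log2 (SE 0.42, adjusted p = 0.00574 by limma) and was at least 10.9-fold lower, with 2 of the 4 preproNK arrays near background. Myb was at 4.91 and 3.59 (WT) and 5.32 and 4.40 (KO) among the ALP arrays, and 2.45 and 2.52 (WT) and 2.57 and 2.72 (KO) among the preproNK arrays. This probe set was dim throughout, near background on WT ALP replicate 2 and on all 4 preproNK arrays. Its fitted difference of -1.99 log2 (SE 0.37, adjusted p = 0.0325 by limma) therefore amounts to at least 1.4-fold.

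Mef2c, a MADS-box factor, was at 6.98 and 6.70 (WT) and 7.22 and 6.71 (KO) among the ALP arrays, and 4.64 and 5.82 (WT) and 4.31 and 4.47 (KO) among the preproNK arrays. The highest preproNK value was that of WT replicate 2, and the mean difference was -2.09 log2 (SE 0.33, adjusted p = 0.0179 by limma). Spi1 was at 7.36 and 7.05 (WT) and 7.56 and 7.30 (KO) among the ALP arrays, and 5.21 and 6.20 (WT) and 5.08 and 6.33 (KO) among the preproNK arrays. Both preproNK arrays of replicate 2 were about 1 log2 above those of replicate 1, yet below all ALP arrays. The difference of Spi1 was -1.61 log2 (SE 0.37), which did not pass over all genes (limma, adjusted p = 0.067). It passed once the fit held the replicate block (limma, adjusted p = 0.0253).

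Satb1 was the exception. Its values were 9.20 and 8.24 (WT) and 9.49 and 8.92 (KO) among the ALP arrays, and 8.45 and 5.09 (WT) and 8.55 and 8.13 (KO) among the preproNK arrays. On 3 of the 4 preproNK arrays Satb1 was within the range of ALP or just under it, and only WT preproNK replicate 2 was far lower. The mean difference was -1.41 log2 (SE 0.68, 95% interval -2.98 to 0.16, adjusted p = 0.42 by limma). It was -0.57 (adjusted p = 0.426) without WT preproNK replicate 2 and -2.25 (adjusted p = 0.00885) without WT preproNK replicate 1, so 1 library set its size and its call.

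Within WT alone, Sox4 was the only one of the 10 called lower (-3.57 log2, SE 0.43, adjusted p = 0.0401 by limma), against 0.0604% of tested genes called lower. All 10 had negative differences, from -3.91 for Bcl11a to -1.5 for Spi1. When the fit held the replicate block the count was 5, as Bcl11a, Meis1, Hoxa9 and Lmo2 joined Sox4 (limma, adjusted p 0.0378 to 0.0466 for the 4). Calls over all tested genes, in either direction, rose as well, from 11 in the main fit to 67 with the block. The count of members also changed when single arrays were left out. Without 1 array in turn, the difference ran from -3.96 to -3.17 for Sox4 and from -3.63 to -0.27 for Satb1.

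Within KO, 6 of the 10 were called lower, against 0.535% of tested genes. They were Sox4 (-3.97), Bcl11a (-4.87), Mef2c (-2.57), Meis1 (-3.78), Hoxa9 (-3.74) and Lmo2 (-3.47), with adjusted p from 0.00851 to 0.0422 by limma. Those of Myb (-2.22), Hhex (-2.76), Spi1 (-1.72) and Satb1 (-0.86) did not pass (adjusted p = 0.104, 0.132, 0.224 and 1). Myb passed with the replicate block (limma, adjusted p = 0.0339). Without the filter on dim genes 4 were called, as Mef2c and Lmo2 did not pass (adjusted p = 0.0569 for both). Without any 1 of the 4 KO arrays the count was 0, with all 10 differences still negative. For the mean over WT and KO the count was 2 without KO preproNK replicate 1, 4 without KO preproNK replicate 2 and 5 without WT ALP replicate 1 or either KO ALP array, and Sox4 and Bcl11a were called each time.

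**Figure D2:**
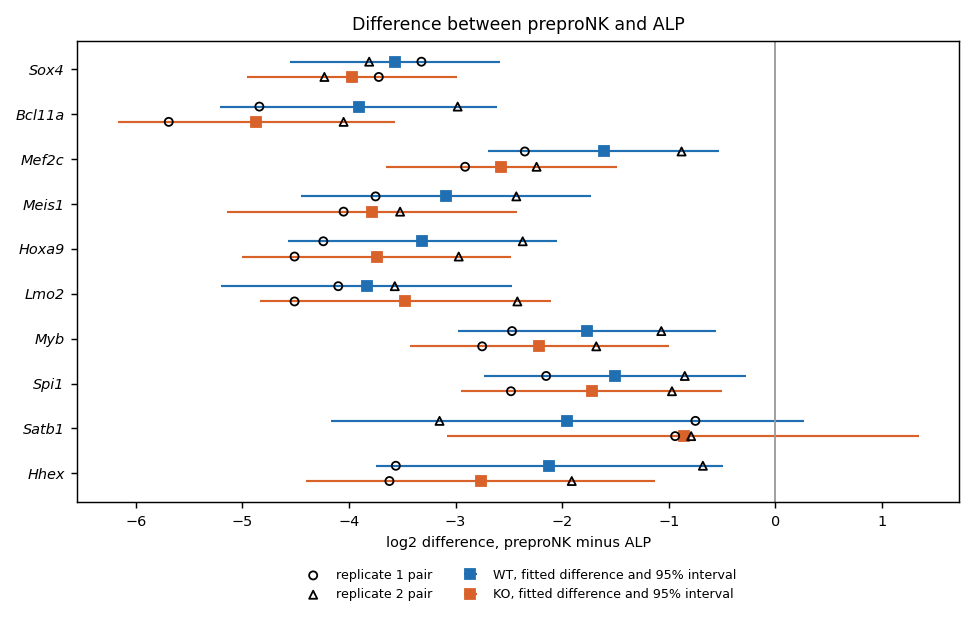
The horizontal axis is the log2 difference between preproNK and ALP for each of the 10 genes. Squares with bars are fitted differences with 95% intervals in WT (blue) and KO (orange), and open circles and triangles are the replicate 1 and replicate 2 pairs. All pair values are below 0, and the interval of Satb1 crosses 0 in both genotypes.

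The replicate pairs differed in size. For replicate 1 the median of the 10 pair differences was -3.44 log2 (WT) and -3.67 (KO). For replicate 2 it was -2.40 and -2.33. This arose from both sides. In WT ALP and in KO ALP, 9 of the 10 genes were lower on replicate 2 than on replicate 1, all but Sox4, with a median shift of -1.04 and -0.60 log2. In WT preproNK and KO preproNK only 3 and 2 of the 10 were lower on replicate 2, with a median shift of 0.46 and 0.28. Over all tested genes 57.6%, 60.7%, 57.7% and 51.9% were lower on replicate 2 in the same order of groups. Hhex had the most unequal pairs in WT, at -3.56 and -0.68. The replicate 2 ALP arrays also had a narrower spread over the probe sets, with SDs of 1.55 (WT) and 1.66 (KO) against 1.78 and 1.88 on replicate 1. Of the 10 members, 8 are among the 2896 tested genes brightest in ALP. The shift of those bright genes between replicates 1 and 2 within a group was not computed. The parts of the narrower spread and of the processing date in these shifts were not tested.

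The other probe sets of the members gave the same direction with unequal sizes. All 22 probe sets had a negative mean difference, from -4.39 to -0.79 log2. For 19 of the 22 all preproNK arrays lay below all ALP arrays. The share over all probe sets was not counted, and over the tested genes, each at its brightest probe set, it was 6.97%. Several of the 22 belong to the same gene, so they are not independent of each other. In a fit over all 26240 probe sets that passed the filter, 14 of the 21 member probe sets tested were called lower for the mean of WT and KO, where 2.82% of probe sets were called in either direction. All 5 probe sets of Sox4 were called (-4.10 to -2.81), as were all 3 of Mef2c (-3.32 to -2.09). Bcl11a had 4, of which 2 were called, the dimmest failed the filter on dim probe sets, and differences ran from -4.39 to -0.89.

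The second probe set of Meis1 differed from the first. Its mean difference of -1.52 log2 was not called in the fit over probe sets (limma, adjusted p = 0.15). It was at 6.17 and 5.13 (WT) and 5.94 and 5.42 (KO) among the ALP arrays, and 4.12 and 5.90 (WT) and 3.21 and 3.36 (KO) among the preproNK arrays. Its value on WT preproNK replicate 2 was as high as in ALP, whereas the representative probe set was at 3.16 on that array. One further probe set annotated to Meis1 and a second gene was not used. The 3 probe sets of Satb1 had mean differences of -1.41, -1.09 and -0.79 and none was called. On each of them WT preproNK replicate 2 was the lowest of the 8 arrays, at 5.09, 2.80 and 4.62.

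**Figure D3:**
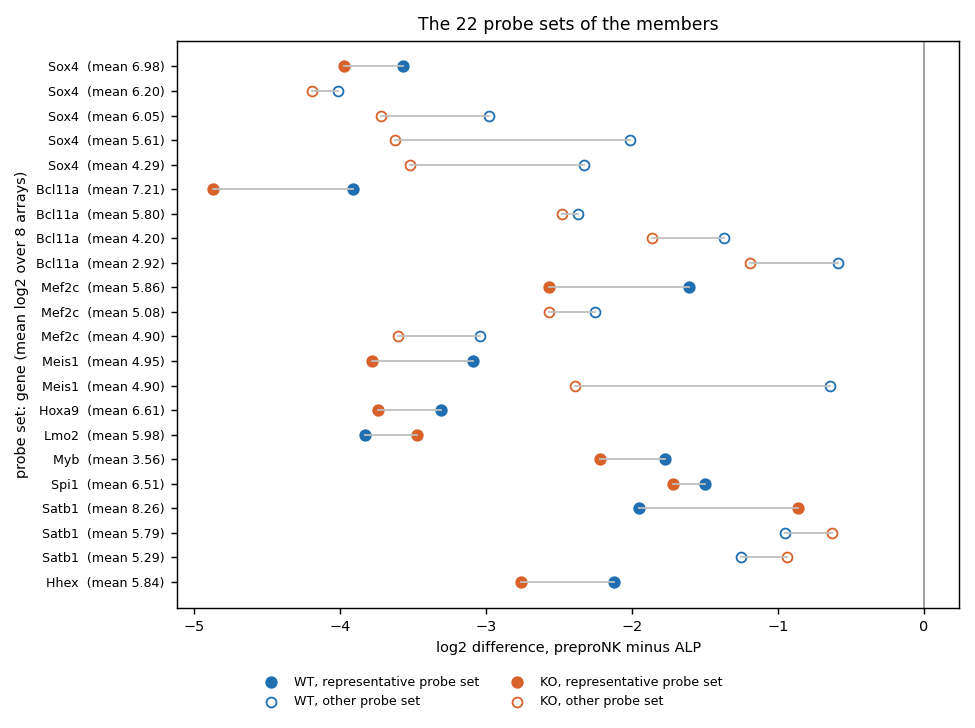
Each row is 1 of the 22 probe sets, named by gene with its mean log2 value over the 8 arrays, and the horizontal axis is the log2 difference between preproNK and ALP. Blue marks WT, orange KO, and filled points are the representative probe sets. Every point lies below 0, and dimmer probe sets of Bcl11a lie nearer to 0 than its representative one at -3.91 and -4.87.

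The knockout comparison in ALP asked whether loss of Nfil3 alters this programme before the NK lineage forms. No member was called (limma, 0 of 10, against 0% of tested genes, with 5 of the 11583 tested genes and 0 members at an unadjusted p under 0.05). Nfil3 itself, with a difference of -2.41 log2, was not called either, so the comparison can miss changes of that size. All 10 had slightly higher values in KO, from 0.03 log2 for Sox4 to 0.63 for Hhex, with a median of 0.30. The median was 0.06 over all tested genes and 0.25 over the 2896 brightest in ALP, the bright part of the tested genes, to which 8 of the 10 belong. Myb had a difference of 0.61 (SE 0.52, 95% interval -0.61 to 1.82) and Bcl11a one of 0.56 (SE 0.56, 95% interval -0.74 to 1.86). The intervals of all 10 include 0, and that of Sox4 ran from -0.96 to 1.01, so changes of this size were not resolved. The sign rests on single arrays, since without WT ALP replicate 2 Bcl11a, Mef2c, Meis1, Hoxa9, Lmo2, Myb and Hhex had values of -0.54 to -0.02. After repeated quantile normalization the signs of Sox4, Mef2c, Hoxa9, Lmo2 and Spi1 turned as well (-0.19 to -0.01).

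In preproNK the question was whether the early factors stay on when Nfil3 is missing. No member was called there either (limma, 0 of 10, against 0% of tested genes, with 625 of the 11583 tested genes and 0 members at an unadjusted p under 0.05). Nfil3 itself, at -1.04 log2, did not pass (limma, adjusted p = 0.613). The replicate block gave 0 of the 10 as well. The median log2 difference between KO and WT was -0.10, with 6 genes lower and 4 higher in KO. For 9 of the 10 the difference was under 1 log2 in either direction. Mef2c was lower in KO (-0.83, SE 0.47, 95% interval -1.92 to 0.25), with pair differences of -0.32 (replicate 1) and -1.35 (replicate 2). Satb1 had a difference of 1.57 (SE 0.96, 95% interval -0.65 to 3.79), made of 0.10 and 3.04 in the pairs. Without WT preproNK replicate 2, Satb1 differed by -0.11 and Mef2c by -0.24 (adjusted p = 1 for both). Without WT preproNK replicate 1, Satb1 differed by 3.25 (adjusted p = 0.0127) and Mef2c by -1.43 (adjusted p = 0.0425), and 2532 tested genes were called. That leaves the outlying replicate 2 as the lone WT preproNK array, assumed to vary like the other groups, whose spread sets these p-values. Over the 2896 tested genes brightest in ALP, the median difference between KO and WT preproNK was 0.04 for replicate 1 and 1.4 for replicate 2.

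**Figure D4:**
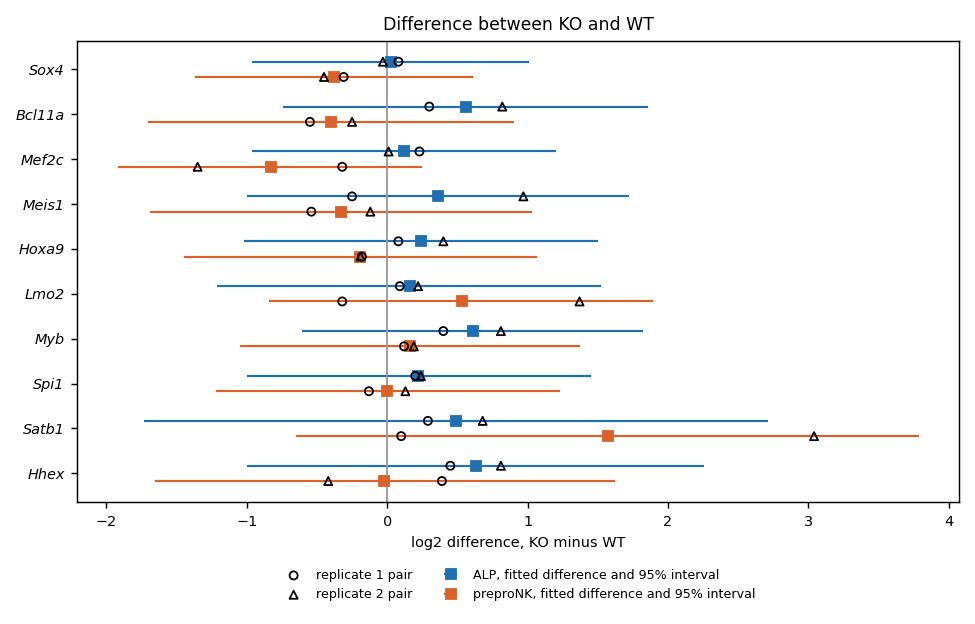
The horizontal axis is the log2 difference between KO and WT for each of the 10 genes. Squares with bars are fitted differences with 95% intervals in ALP (blue) and preproNK (orange), and open circles and triangles are the replicate 1 and replicate 2 pairs. All intervals include 0, and the replicate 2 pair of Satb1 in preproNK lies far out at 3.04.

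Whether the knockout effect differed between the populations was tested as an interaction, which equals the difference between the preproNK-to-ALP contrasts of the 2 genotypes. It passed for 0 of the 10 (limma, adjusted p = 1 for each, against 0% of tested genes, with 183 of 11583 and 0 members at an unadjusted p under 0.05). The values ran from -0.96 (Bcl11a, SE 0.79, and Mef2c, SE 0.66) to 1.08 (Satb1, SE 1.36), with a median of -0.44, and 8 of 10 were negative. Thus a call in KO and none in WT, as for Bcl11a, Mef2c, Meis1, Hoxa9 and Lmo2, does not show that the genotypes differ. The widest interval was that of Satb1, from -2.05 to 4.22.

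Other transcription factors of stem and multipotent cells were taken as a list. Of 17 tested, 4 fell for the mean of WT and KO and 0 rose, with a median of -0.91 log2. They were Lyl1, a bHLH partner of Lmo2 (-3.14, SE 0.37, adjusted p = 0.00683 by limma), Hoxa3 (-2.14, adjusted p = 0.0189), the ETS factor Erg (-2.05, adjusted p = 0.0199) and the corepressor Cbfa2t3 (-1.44, adjusted p = 0.0376). Runx1, Fli1 and Nkx2-3 had differences of 0.05, 0.67 and -0.06 that did not pass (adjusted p = 0.853 to 0.988, named after their values were seen).

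Among 17 tested partners of the members, 1 fell and 1 rose, with a median of 0.05. Irf8, an interferon regulatory factor that binds DNA with Spi1, fell by 2.96 log2 (adjusted p = 0.0076 by limma), from 8.97 in WT ALP to 6 in WT preproNK. Trib2, a pseudokinase that acts on C/EBP factors, rose by 2.30 (adjusted p = 0.0149 by limma), from 3.95 to 6.08. It was at or below the array median on 3 of the 4 ALP arrays. Ldb1, the scaffold that holds Lmo2 complexes, had means of 10.45 (WT) and 10.40 (KO) in ALP and of 10.34 (WT) and 10.52 (KO) in preproNK, and is named after its values were seen.

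Among genes known as targets of the members, all called changes were falls. Whether these depend on the members was not tested. Of 14 tested, 6 fell and 0 rose, with a median of -1.55 log2. Dntt, the polymerase that adds bases at antigen receptor joints, had a log2 difference of -6 (SE 0.27, adjusted p = 0.000286 by limma), Cd34 one of -5.25, Flt3 one of -4.64 and Erg, counted above too, one of -2.05. Cd33 and Csf2rb also fell, while Myc, Kit and Mpo had differences of -1.70, -1.41 and -2.04 that did not pass (adjusted p = 0.156, 0.225 and 0.295, named after their values were seen). For Dntt, Cd34 and Flt3 the fall was also called in WT alone (limma, adjusted p = 0.00519, 0.0217 and 0.0342). Cd34 was at or below the array median on all 4 preproNK arrays and Flt3 on 2, so their differences include values near background. Dntt was above it on every array.

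Factors of lymphoid commitment were mixed. Of 13 tested, 3 rose and 1 fell, with a median of 0.03, where 1.77% of all tested genes were called higher and 3.38% in either direction. The Ikaros family gene Ikzf3 rose by 5.36 log2 (SE 0.73), Lef1 by 3.57 and Bcl11b, a T cell and innate lymphoid relative of Bcl11a, by 3.53, while the E protein gene Tcf4 fell by 3.53 (adjusted p 0.0073 to 0.0328 for the 4 by limma). Of 14 tested NK and innate factors, 6 rose and 1, Zeb2, fell (-2.38), with a median of 2.16. Tbx21, which encodes T-bet, rose by 4.19, Bcl11b by 3.53, Id2 by 3.38 and Zbtb16 by 2.56 (adjusted p 0.00135 to 0.0124 by limma). Lef1 and Tbx21 were at or below the array median on all 4 ALP arrays and Zbtb16 on 2, so their rises start near background. Ikzf3, Bcl11b and Id2 were above it on every array. Bcl11a and Bcl11b thus went in opposite directions, with means of 9.12 and 4.98 in WT ALP and of 5.22 and 7.82 in WT preproNK. These calls are for the mean of WT and KO. In WT alone 0 of the 13 lymphoid factors and 0 of the 14 NK and innate factors were called, while 2 and 4 rose in KO. The interaction passed for 0 tested genes.

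The 5 tested genes whose pattern over the 8 arrays was most like the mean of the members were Flt3, Snn, Cnn3, Cd34 and Adgrl4, with Pearson r of 0.993 to 0.995. The 8 arrays fall into 2 populations, so such an r mostly states the same step between them. Flt3, a cytokine receptor, was at 9.14 and 8.10 (WT) and 9.14 and 8.64 (KO) among the ALP arrays, and 3.79 and 4.47 (WT) and 3.84 and 4.38 (KO) among the preproNK arrays. Like most members it was lower on replicate 2 in WT and KO ALP and higher on replicate 2 in both preproNK groups. Cd34, a sialomucin of progenitors, was between 7.17 and 8.59 in ALP and between 2.73 and 3.01 in preproNK. Snn, Cnn3 and Adgrl4 had mean differences of -2.79, -3.41 and -3.48 log2.

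Markers of other cell types moved with the population as well. The mean log2 value over 12 T lineage markers was 4.38 to 4.60 on the ALP arrays, 6.86 and 5.48 in WT preproNK and 8.36 and 7.97 in KO preproNK, with 5 to 9 of the 12 above the array median in ALP and 10 or 11 in preproNK. Of the 11 tested T markers 9 rose, led by the CD3 chain gene Cd3e (5.72 log2, SE 0.43, adjusted p = 0.00135 by limma), Cd3g (4.86), Cd2 (3.70) and Cd3d (3.24). The mean over 13 NK lineage markers was 4.38 to 4.64 in ALP, 5.53 and 4.95 in WT preproNK and 6.80 and 6.71 in KO preproNK. Of 12 tested, 6 rose, led by Il2rb (3.53), Ccl5 (3.32), Il18r1 (3.31) and Klrk1 (2.89), while Cd244a fell by 1.98. Cd3e, Cd3g, Ccl5 and Klrk1 were at or below the array median on all 4 ALP arrays, Il2rb on 3 and Cd2 on 1. Cd3d and Il18r1 were above it on every array. These calls are for the mean of WT and KO. In WT alone 0 of the 11 T markers and 0 of the 12 NK markers were called, while 8 and 7 rose in KO. Of 11 early progenitor markers 5 fell and 0 rose, among them Cd93 (-3.52) and Rag2 (-1.64) beside Dntt, Cd34 and Flt3. On the preproNK arrays Rag2 and the B lineage gene Blnk were at or below the array median on all 4, and Cd93 on 1. Of 7 tested B lineage markers 1 fell (Blnk, -3.26), of 8 dendritic markers 2 fell (Flt3 and Irf8), and of 11 myeloid, 9 erythroid and 5 mast cell and megakaryocyte markers 0 were called by limma. The smallest unadjusted p of these were 0.00496 (Csf3r) and 0.0379 (Mpo), 0.0186 (Tfrc) and 0.0440 (Hba-a1), and 0.0527 (Mcpt8) and 0.149 (Gata2). The part of T lineage RNA in the lower member values of preproNK was not tested.

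**Figure D5:**
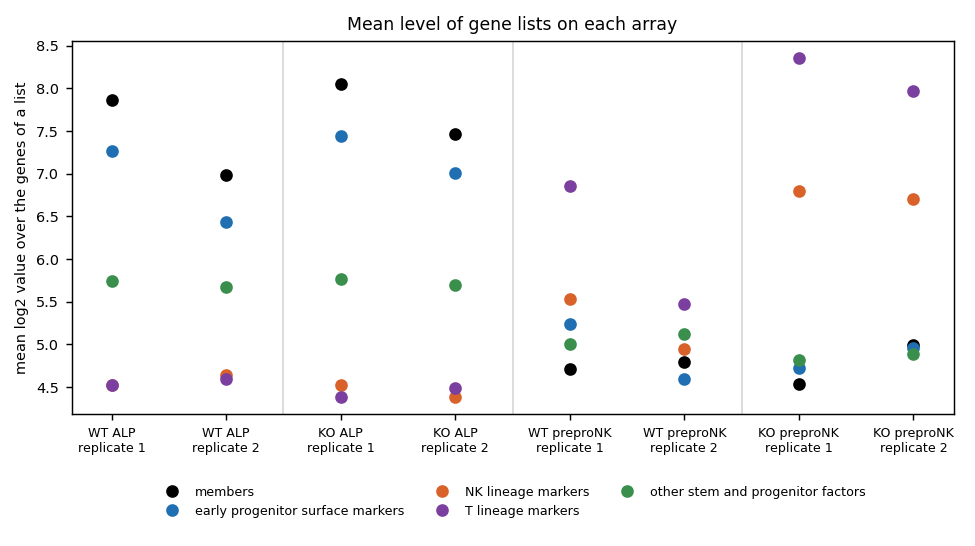
Each point is the mean log2 value, on 1 array, over the genes of a list: the 10 members, 11 early progenitor markers, 13 NK lineage markers, 12 T lineage markers and 19 other stem and progenitor factors. The legend calls the early progenitor markers surface markers, although Dntt, Rag1 and Rag2 among them are nuclear. Points compare arrays within a list, not lists with each other. The members lie at 6.98 to 8.05 on the ALP arrays and at 4.54 to 4.99 on the preproNK arrays.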

How the data were processed

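The authors deposited log2 values, 1 per probe set and array. RMA and Partek are named by the submitters' processing notes, without versions or settings. RMA in general subtracts background, makes the arrays' distributions alike and sums up each probe set. The deposited distributions were not alike, with array medians of 3.93 to 4.27 and SDs over the probe sets of 1.39 to 1.88. RNA was amplified before labelling, per the labels' protocols, which can add spread between arrays. The precision is limited by there being 2 arrays a group.

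Of the probe sets, 28898 had 1 gene symbol, 551 several and 15692 none listed, and only the first were named. The brightest such probe set, by its mean over all arrays, stood for the gene, which was tested if above the array median on at least 2 arrays, which kept 11583 genes and all 10 members. The 8 arrays entered the same fit, with a mean for each group (limma 3.58.1, R 4.3.3; lmFit and eBayes, 4 residual degrees of freedom), two-sided, with Benjamini-Hochberg adjustment over all tested genes and calls at an adjusted p under 0.05. Nothing says the 2 arrays of a group came from separate mice, so the p-values speak for the spread of these samples alone, and that may be technical. For a fold written as at least, values of the dimmer population at or below their array's median were set to it and the brighter population was left as measured, a choice made after seeing the data. The steps were tested on simulated data.

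By the series' design text, each replicate number was processed on its own date, which pairs the samples. Deviations of replicate 1 from the group means correlated at 0.149 to 0.807 over the 6 pairs of groups. The main fit held no replicate block and so left this pairing out. With the block, 5 members against 1 were called in WT, 7 against 6 in KO and 9 against 8 for their mean. Over all tested genes, the calls with the block were 67 against 11, 449 against 203 and 852 against 391. The named genes are the 10 members, Nfil3, up to 4 called genes per fixed list (2 by unadjusted p where none was called) and the 5 genes most like the members. Others are said to be named after their values were seen. The members and the lists were chosen with earlier results of these data known.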

Additional observations from a re-analysis of the deposited data

How the results depend on the processing

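In the 3 comparisons of preproNK with ALP the direction of all 10 genes was kept under all 16 alternatives, 160 values each, but the number called was not. In WT (1 called) it was 5 under the replicate block and 5 after repeated quantile normalization, 8 with the block and without WT preproNK replicate 2, and 0 without a filter on dim genes, with every probe set fitted, with array quality weights or with a trend and robust prior. For the mean of WT and KO (8 called) it was 6 without the filter, 7 with every probe set fitted (Hhex lost, adjusted p = 0.0529 by limma) and 9 under the block, with or without WT preproNK replicate 2. In KO (6 called) it was 4 without the filter, 5 after quantile normalization, 7 under the block, 8 with array quality weights and 9 with the block and without WT preproNK replicate 2. With an array left out, its group has a lone array, assumed to vary like the other groups. Leaving out each array gave 0 to 6 in WT, 0 to 6 in KO, 2 to 9 for their mean, 0 to 2 for KO against WT in preproNK and 0 for the other 2 comparisons. Over all genes, the mean comparison had 391 calls, 852 with the block, and 35 to 1058 without 1 array. The block called no member in the knockout comparisons or the interaction.

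Signs turned for knockout and interaction values that no fit of all 8 arrays called. After repeated quantile normalization KO minus WT in ALP was -0.19 for Sox4, -0.10 for Mef2c, -0.01 for Hoxa9, -0.08 for Lmo2 and -0.02 for Spi1. With the block and without WT preproNK replicate 2, KO minus WT in preproNK was 0.08 for Bcl11a, 0.38 for Hoxa9 and 1.02 for Hhex, and the interaction was 0.14 for Hoxa9, 0.16 for Spi1, -0.27 for Satb1 and 0.39 for Hhex. Without 1 array in turn, KO minus WT in ALP ran from -0.36 to 0.42 for Sox4, -0.06 to 1.18 for Bcl11a, -0.13 to 0.38 for Mef2c, -0.54 to 1.25 for Meis1, -0.24 to 0.72 for Hoxa9, -0.40 to 0.71 for Lmo2, -0.06 to 1.27 for Myb and -0.21 to 1.46 for Hhex. Likewise, KO minus WT in preproNK ran from -0.64 to 0.27 for Hoxa9, -0.11 to 3.25 for Satb1, -0.62 to 0.59 for Hhex, -0.86 to 0.06 for Bcl11a and -0.03 to 1.08 for Lmo2. Likewise, the interaction ran from -0.19 to 0.93 for Lmo2, -1.58 to 0.21 for Meis1, -0.91 to 0.05 for Hoxa9, -1.11 to 0.21 for Myb, -1.48 to 0.19 for Hhex, -0.85 to 0.40 for Spi1 and -0.59 to 2.76 for Satb1. The cause was not tested. Only 2 arrays a group and dim preproNK values limit these comparisons.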
